A study of Mus musculus with 9 samples.

Results

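Matrix metalloproteinases and their tissue inhibitors were examined in macrophages of mouse visceral fat as 10 genes found by symbol in the deposited table: the proteases Mmp2, Mmp8, Mmp9, Mmp12, Mmp13, Mmp14 and Mmp19 and the inhibitors Timp1, Timp2 and Timp3. All 10 of 10 were among the 14905 genes of the table. RNA was sequenced from cells sorted from visceral adipose tissue for the surface proteins F4/80 and CD11b, which macrophages carry together. The 5 KO libraries came from Nucb2-/- mice, in which both copies of the gene for nucleobindin-2 are disrupted, and the 4 WT libraries from wild type mice; both groups had a C57BL/6 background. The sample labels state neither age nor sex nor diet. The name of the deposited table, which holds all 9 libraries, carries the letters HFD, a usual short form of high-fat diet, and obesity is named in the series title. Of the 10 genes, Mmp2 was lower in KO and was the only one to pass the test across all genes, while Mmp9 and Timp3 were above the WT range in each KO library without passing it.

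Matrix metalloproteinases are zinc-dependent proteases that are secreted or held at the cell surface and that cut collagens, elastin, other matrix proteins and many cytokines and receptors. They are made as inactive proforms, and the Timp proteins block the active enzymes by binding at the catalytic site. In adipose tissue the family takes part in remodelling the matrix as fat expands, and macrophages are one of several cell types that make its members.

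The values are normalized read counts, that is, reads per gene divided by 1 factor per library, and no value is below 1. The spacing of the values implied the number of reads on the genes of the table, counting values above 1. Other reads of a library are not included. The number was about 51100000 to 55000000 for KO replicate 5 and WT replicates 3 and 4 (the 3 shallower libraries). The 6 deeper libraries held about 74900000 to 85200000. None of the 10 genes was at that lowest value of 1, called the floor here, in any library. The labels number replicates but do not tie each to a mouse, and p-values therefore measure the spread between libraries, which may be technical. As a check of the labels, Nucb2 ranged from 1165 to 1752 normalized counts across KO libraries and from 3311 to 5233 across WT libraries, a log2 difference of -1.52 (limma adjusted p = 0.00054). The 8 macrophage markers were all present, with summed levels of 360545 to 420803 in KO and 393420 to 445047 in WT. Markers of fibroblasts were also high: 10 genes led by decorin summed to 292395 to 452862 in KO and 204915 to 340480 in WT.

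The gelatinases Mmp2 and Mmp9, which cut denatured collagen and the collagen of basement membranes, lay on opposite sides: each KO library was below the WT range for Mmp2 and above it for Mmp9. Mmp2 lies on mouse chromosome 8, 92827291 to 92853420 on the plus strand, and Mmp9 on chromosome 2, 164940780 to 164955850 on the plus strand (mm10, GENCODE M21). Mmp2 (gelatinase A) had 3037, 2817, 2674, 2898 and 3200 normalized counts in KO replicates 1 to 5, and 5124, 4657, 6099 and 3656 in WT replicates 1 to 4. Each KO library lay below each WT library, and the KO libraries were close together, with a coefficient of variation of 6.91% against 20.8% in WT. The mean was 2925 ± 202 for KO and 4884 ± 1016 for WT (SD, n = 5 and 4), so that the KO mean was 0.599 times the WT mean. Mmp2 fell by 0.72 on the log2 scale, with a pseudocount of 1 (SE 0.14, 95% interval -1.02 to -0.41; limma, adjusted p = 0.048 over 14905 genes).

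Mmp9 (gelatinase B, stored in neutrophil granules and made by activated macrophages) had 553, 335, 376, 332 and 566 normalized counts in KO replicates 1 to 5. In WT replicates 1 to 4 it had 118, 95.9, 106 and 130. The lowest KO library was thus above the highest WT library. The mean was 433 ± 118 for KO and 112 ± 14.5 for WT (SD, n = 5 and 4), and the log2 difference was 1.90 (SE 0.43, 95% interval 0.99 to 2.82). It did not pass across all genes (limma adjusted p = 0.089).

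Over all 10 genes, 1 was lower and 0 were higher past an adjusted p of 0.05, where 0.309% of all genes passed in either direction and 0.127% passed as lower and 0.181% as higher. By limma-voom 0 of the 10 passed, where 0.215% of all genes did. By limma's unadjusted p under 0.05 the count was 3 of 10 (Mmp2, Mmp9 and Timp3), against 9.14% of all genes. The same 3 genes had KO and WT ranges that were fully apart, against 3.15% of all genes (1.6% with KO lower, as for Mmp2, and 1.55% with KO higher, as for Mmp9 and Timp3). The genes were picked with results of these data known, so these counts are a description. The median log2 difference was 0.12 over the 10 genes and 0.02 over all genes. The Mmp2 call held without WT replicate 4 (log2 difference -0.85, limma adjusted p = 0.036). It was lost when any one of the other 8 libraries was left out (KO replicates 1 to 5 and WT replicates 1 to 3; adjusted p between 0.135 and 0.227), with log2 differences of -0.75 to -0.60, and the calls over all genes went from 46 to between 5 and 38 with a library left out. With depth (deeper or shallower) added to the fit, the Mmp2 difference was -0.70 (adjusted p = 0.104).

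**Figure D1:**
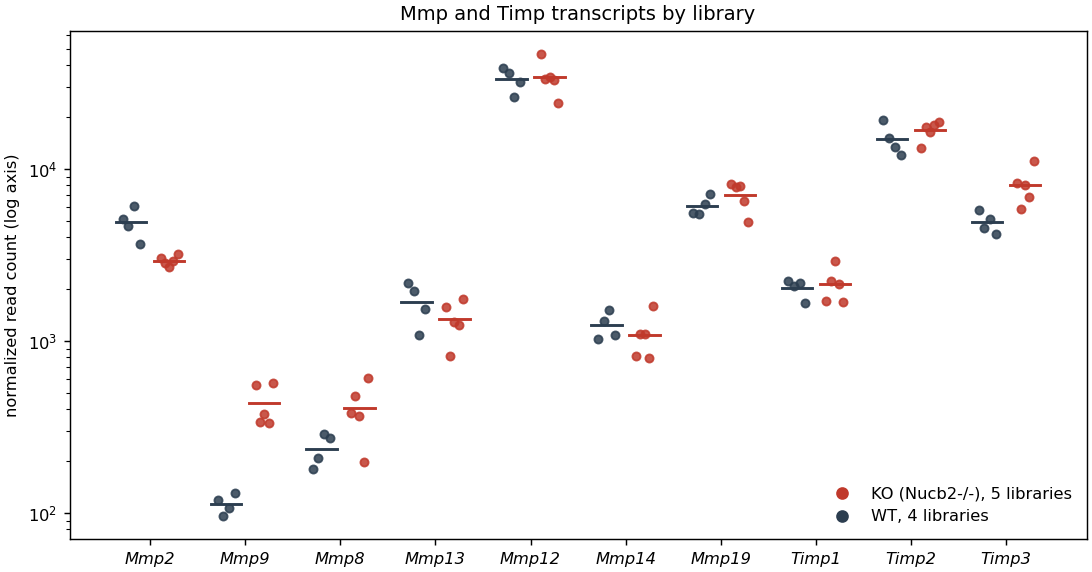
Normalized read count (log axis) of the 10 genes in each library, with WT in dark blue (4 libraries) and KO in red (5 libraries); points are libraries and short lines are group means. The KO points of Mmp2 all lie below the WT points, those of Mmp9 and Timp3 all lie above, and the groups overlap in the other 7 genes.

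The signs of the gelatinase differences were the same within each depth class. That was fixed in advance, because the KO and WT ranges of Mmp2 and Mmp9 did not overlap. In the 6 deeper libraries the log2 difference was -0.78 for Mmp2 and 1.86 for Mmp9, and in the 3 shallower ones it was -0.56 and 2.26. The ratio of Mmp9 to Mmp2 within a library does not depend on the scaling between libraries. Mmp9 stood at 18.2%, 11.9%, 14.1%, 11.4% and 17.7% of Mmp2 in KO replicates 1 to 5 and at 2.30%, 2.06%, 1.74% and 3.54% in WT replicates 1 to 4, in normalized counts. The highest WT ratio was below the lowest KO ratio. This ratio was chosen for the difference of its members and was not tested.

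Ratios of a protease to an inhibitor known to bind it were compared for 3 pairs. Mmp9 was 21.9% ± 10.3 of Timp1 across KO libraries, against 5.66% ± 1.49 across WT libraries (± SD, with n = 5 and 4). Mmp2 was 17.7% ± 2.88 of Timp2 in KO and 33.5% ± 8.41 in WT. In both pairs the groups did not overlap. Mmp9 and Mmp2 were picked with their own differences known and Timp1 and Timp2 differed little, so these ratios are given as a description with no test. Mmp14 was 6.41% ± 1.43 of Timp2 in KO and 8.59% ± 2.47 in WT, and the ranges overlapped (exact two-sided permutation p = 0.175). Without WT replicate 1, the lowest WT library for that ratio, the log2 difference went from -0.40 to -0.61 (exact permutation p = 0.0357). That is the smallest p this test can give with so few libraries. With any other library left out, the exact permutation p was between 0.114 and 0.393. These are ratios of read counts of genes of different length, so they describe change between libraries and not how much protein of each kind was present.

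**Figure D2:**
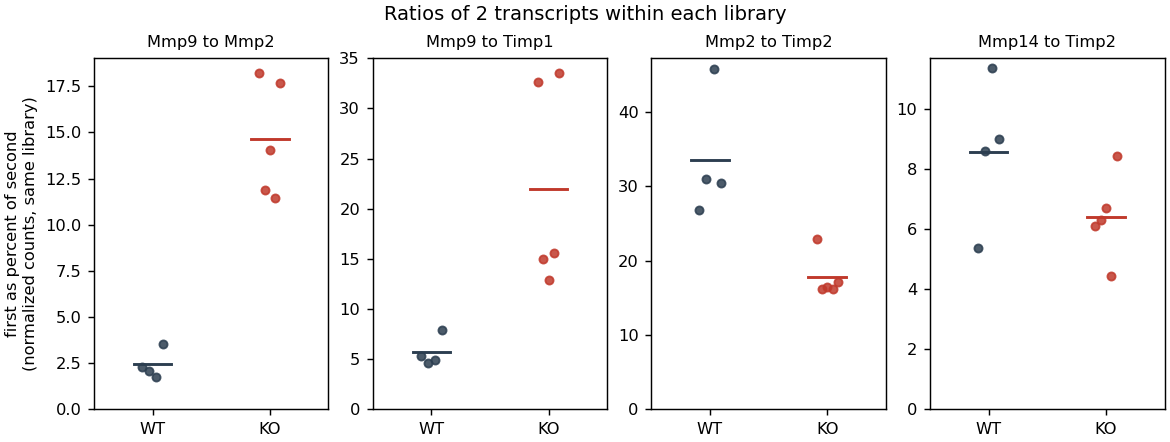
One transcript as a percent of another in the same library (normalized counts), with WT in dark blue (4 libraries) and KO in red (5 libraries); lines are group means and each axis starts at 0. Mmp9 is a larger percent of Mmp2 and of Timp1 in each KO library, Mmp2 is a smaller percent of Timp2, and the Mmp14 to Timp2 ratios overlap.

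Several cell types of adipose tissue make these proteins, and in bulk RNA fewer cells of a type and less RNA per cell cannot be told apart. Mmp2 is a known product of fibroblasts. The fibroblast markers had a summed level whose KO mean was 1.29 times the WT mean, and 8 of 10 had log2 differences above 0, the opposite sign to Mmp2, while 0 of 10 passed the test (3 at an unadjusted p under 0.05, with 0 adjusted and 1 unadjusted by limma-voom; over all genes 9.14% were under an unadjusted 0.05 by limma and 8.26% by limma-voom). Dcn, the decorin gene, made up most of the fibroblast sum. It averaged 249667 of 352870 in KO and 183147 of 274285 in WT. Mmp9 and Mmp8 are known products of neutrophils. The 8 neutrophil markers in the table summed to between 2246 and 3786 normalized counts in KO and between 1864 and 2917 in WT, with 6 of 8 above 0 and a ratio of means of 1.32, while the Mmp9 mean was 3.85 times the WT mean. Most of that sum was Csf3r, the receptor for a neutrophil growth factor (2646 in KO and 2032 in WT on average), and the median log2 difference of the list was 0.53. The calprotectin chains S100a8 and S100a9 averaged 224 and 92.5 for KO against 186 and 52.8 for WT. The granule gene Ltf was above the floor in KO replicates 2 and 3 alone (66.0 and 100.2), and Mpo was at the floor in 6 of the 9 libraries. The mesothelial markers (6 of 6 above 0) summed to 5253 to 16781 in KO and 1768 to 7128 in WT, and the endothelial markers (6 of 6 above 0) to 2546 to 5397 in KO and 1353 to 2790 in WT. The mast cell markers (5 of 6 below 0) summed to 1294 to 2646 in KO and 4891 to 8831 in WT, and 4 of the 6 passed as lower (Tpsb2, Cma1, Cpa3 and Fcer1a; limma), where 0.127% of all genes did. The adipocyte markers (2 of 5 above 0) summed to 112 to 557 in KO and 507 to 870 in WT. Lep held most of the difference between the mean sums of 291 and 617. It averaged 45.7 in KO and 331 in WT, while Plin1 was at the floor in 8 of the 9 libraries. No gene of the macrophage, neutrophil, endothelial, mesothelial or adipocyte lists passed by limma or limma-voom. At an unadjusted p under 0.05 with limma there were 4 of 8, 0 of 8, 2 of 6, 4 of 6 and 1 of 5, and with limma-voom 4, 0, 2, 4 and 1. The endothelial genes Pecam1 (log2 difference 1.47, limma adjusted p = 0.076) and Vwf (1.33, adjusted p = 0.095) had KO ranges above the WT ranges. The macrophage genes C1qa (-0.50, adjusted p = 0.067) and Fcgr1 (-0.50, adjusted p = 0.123) had KO ranges below them. Over all genes 1.55% had KO ranges above and 1.6% below. Of the 8 macrophage markers 3 had log2 differences above 0 and 5 below. Among them Itgam (0.18) and Adgre1 (-0.22) had overlapping ranges. The part of these cell types in the Mmp and Timp differences was not tested.

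**Figure D3:**
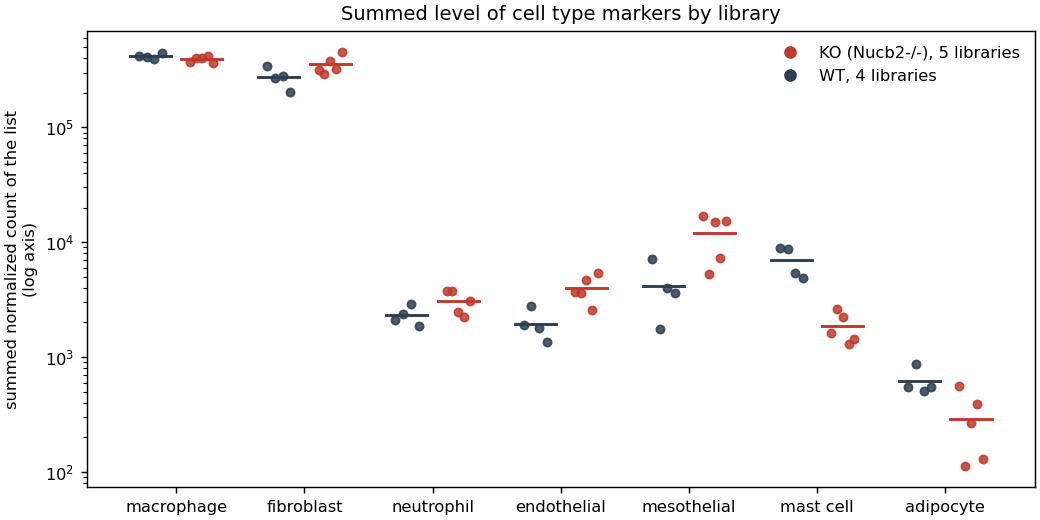
Summed normalized count of each cell type marker list in each library (log axis), with WT in dark blue (4 libraries), KO in red (5 libraries) and lines at group means. Macrophage and fibroblast lists are at similar heights, mast cell sums are lower in each KO library, and mesothelial, endothelial, neutrophil and fibroblast sums overlap between groups with higher KO means.

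Mmp8 and Mmp13, collagenases that cut native fibrillar collagen, lie with the elastase gene Mmp12 in a cluster on mouse chromosome 9 (mm10, positions from GENCODE M21 on GRCm38). The cluster holds 9 Mmp genes found under a protein-coding label between 7272514 and 7699585, a span of 427.1 kb. Mmp1a, at 7464141 to 7476869, also lies in this span and is not among the 9. Mmp13 lies at 7272514 to 7283331, Mmp12 at 7344381 to 7369499 and Mmp8 at 7558456 to 7568485, all on the plus strand. The end of Mmp12 overlaps Mmp1b on the minus strand, and whether strand was used in counting is not given in the sources used here. Mmp13 and Mmp12 are textbook targets of the factor AP-1, formed by Fos and Jun proteins, so the 250 bases before their start sites are shown, with Mmp8 as the third neighbour (RefSeq, GRCm38.p6, plus strand, 5′ to 3′). Capitals mark the AP-1 letters TGANTCA, which read the same on both strands, and the TATA box letters TATAAA.
Mmp13, chr9:7272264-7272513: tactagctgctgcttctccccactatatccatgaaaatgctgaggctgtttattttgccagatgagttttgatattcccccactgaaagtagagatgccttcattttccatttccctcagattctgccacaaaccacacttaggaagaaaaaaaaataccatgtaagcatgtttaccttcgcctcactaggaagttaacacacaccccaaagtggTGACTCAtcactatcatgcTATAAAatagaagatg
Mmp12, chr9:7347124-7347373: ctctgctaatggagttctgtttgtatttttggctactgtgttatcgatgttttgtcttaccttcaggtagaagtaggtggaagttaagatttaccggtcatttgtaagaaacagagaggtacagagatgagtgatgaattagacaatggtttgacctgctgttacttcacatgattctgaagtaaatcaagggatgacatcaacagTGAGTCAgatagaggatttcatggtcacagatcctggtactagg
Mmp8, chr9:7558179-7558428: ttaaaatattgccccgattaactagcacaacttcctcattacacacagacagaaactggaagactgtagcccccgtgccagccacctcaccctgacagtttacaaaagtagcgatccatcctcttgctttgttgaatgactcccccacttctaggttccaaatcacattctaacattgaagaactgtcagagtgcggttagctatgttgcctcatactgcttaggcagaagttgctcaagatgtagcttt
In the Mmp13 window the AP-1 letters begin 35 bases and the TATA box letters 16 bases before the start site. The Mmp12 window, which belongs to the downstream one of its RefSeq start sites, holds AP-1 letters from 44 bases before the start and no TATAAA on either strand. The upstream Mmp12 window and the Mmp8 window hold neither. Of 32851 promoter windows of this length, 6.75% hold TGANTCA and 12.37% hold TATAAA on either strand. A match is a description of letters and not of binding.

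Of these 3 neighbours 0 passed the test. Mmp8 had 382, 478, 366, 198 and 608 normalized counts in KO replicates 1 to 5 and 179, 208, 287 and 271 in WT replicates 1 to 4. KO replicate 4 lay inside the WT range and the other 4 KO libraries lay above it. The log2 difference was 0.71 (95% interval -0.19 to 1.61; limma adjusted p = 0.645). Mmp13 had 1571, 816, 1288, 1239 and 1743 in KO replicates 1 to 5 and 2171, 1959, 1075 and 1530 in WT replicates 1 to 4. The groups overlapped, with a log2 difference of -0.33 (95% interval -0.87 to 0.20; adjusted p = 0.738). For Mmp13 the depth classes gave opposite signs, -0.79 in the 6 deeper libraries and 0.44 in the 3 shallower ones.

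Mmp12, the macrophage elastase, had the highest count of the family. It had 46253, 33314, 34278, 32827 and 24033 normalized counts in KO replicates 1 to 5 and 38686, 36102, 26253 and 31754 in WT replicates 1 to 4. The KO values spanned the WT range, and the log2 difference was 0.02 (95% interval -0.29 to 0.34; limma adjusted p = 0.973). The sign turned with depth added to the fit (-0.12) and was negative within both depth classes (-0.04 in the 6 deeper libraries and -0.26 in the 3 shallower ones).

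Mmp14 encodes a membrane-bound protease that activates the Mmp2 proform in a complex with Timp2, and Mmp19 encodes a secreted protease that cuts basement membrane proteins. Mmp14 had 813, 1101, 1093, 795 and 1586 normalized counts in KO replicates 1 to 5 and 1024, 1296, 1513 and 1083 in WT replicates 1 to 4. Its groups overlapped, with a log2 difference of -0.22 (95% interval -0.72 to 0.29; limma adjusted p = 0.819), being -0.29 in the 6 deeper libraries and 0.31 in the 3 shallower ones. Mmp19 had 8187, 7809, 7934, 6517 and 4905 in KO replicates 1 to 5 and 5550, 5444, 6236 and 7135 in WT replicates 1 to 4. KO replicates 1 to 3 were above the WT range and KO replicate 5 was below it. The log2 difference was 0.20 (95% interval -0.11 to 0.51; adjusted p = 0.733), being 0.46 in the 6 deeper libraries and -0.44 in the 3 shallower ones.

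Of Timp1, Timp2 and Timp3, Timp3 had the largest log2 difference and lies on chromosome 10, 86300372 to 86349506 on the plus strand. Its product is unusual among Timp proteins in binding to the matrix, and it also inhibits the Adam17 sheddase. Timp3 had 8296, 5797, 8008, 6818 and 11041 normalized counts in KO replicates 1 to 5 and 5781, 4528, 5092 and 4185 in WT replicates 1 to 4. The groups did not overlap, but KO replicate 2 and WT replicate 1 were close, at 5797 and 5781. The mean was 7992 ± 1974 for KO and 4897 ± 698 for WT (SD, n = 5 and 4), with a log2 difference of 0.68 (SE 0.16, 95% interval 0.34 to 1.02). It did not pass across all genes (limma adjusted p = 0.095). The difference was 0.48 in the 6 deeper libraries and 1.26 in the 3 shallower ones, where KO replicate 5, the only KO library, held the highest value.

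Timp1, a secreted inhibitor that pairs with the Mmp9 proform, had 1693, 2239, 2919, 2134 and 1687 normalized counts in KO replicates 1 to 5 and 2216, 2085, 2180 and 1649 in WT replicates 1 to 4. Of the 4 WT values 3 lay inside the KO range (log2 difference 0.05, 95% interval -0.34 to 0.44; limma adjusted p = 0.95). Timp2 had 13283, 17444, 16298, 17864 and 18747 in KO replicates 1 to 5 and 19096, 15046, 13309 and 11997 in WT replicates 1 to 4. WT replicate 1 held the highest Timp2 value of all 9 libraries, and the log2 difference was 0.18 (95% interval -0.09 to 0.46; adjusted p = 0.716).

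RefSeq promoter windows were matched for 7 of the 10 genes. The windows of Timp1, Timp2, Timp3 and Mmp14 hold the GC box letters GGGCGG or their reverse complement and neither AP-1 nor TATA box letters, unlike Mmp13. That of Timp3 is shown as the inhibitor whose ranges did not overlap (RefSeq, GRCm38.p6, plus strand, 5′ to 3′). The GC box letters are in capitals, 15 bases before the RefSeq start. The GENCODE start of Timp3, 86300372, is inside this window and ahead of the capitals. The Timp2 window, at 118355412 to 118355661 on chromosome 11, lies inside the GENCODE gene, which ends at 118355740 (minus strand).
Timp3, chr10:86300162-86300411: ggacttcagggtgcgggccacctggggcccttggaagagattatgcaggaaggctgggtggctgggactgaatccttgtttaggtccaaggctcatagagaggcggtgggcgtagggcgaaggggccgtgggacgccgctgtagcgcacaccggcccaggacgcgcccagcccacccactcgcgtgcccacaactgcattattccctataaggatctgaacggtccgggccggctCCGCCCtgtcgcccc
GC box letters are common, and stood in 32.74% of the 32851 windows. The GC content of the shown window was 65.6% for Timp3 against 40.4% for Mmp13 and 44.8% for Mmp8.

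Per kilobase of exon (union of GENCODE M21 exons), the order of the levels was Mmp12, Timp2, Timp1, Mmp19, Mmp2, Timp3, Mmp13, Mmp14, Mmp8 and Mmp9. The mean over the 9 libraries was 4660 normalized counts per kilobase for Mmp12, 4081 for Timp2, 2353 for Timp1 and 1878 for Mmp19. It was 1126 for Mmp2, 812 for Timp3, 557 for Mmp13, 192 for Mmp14, 136 for Mmp8 and 82.0 for Mmp9. Neighbours in this order overlapped in their ranges over libraries except Mmp13 and Mmp14 (305 or more against 266 or less). Within a group, Mmp2 was above Timp3 in WT (1449 ± 301 against 601 ± 85.7 per kilobase), and in KO the means lay in the other order (868 ± 60.0 against 981 ± 242). Mmp12 made up 47.5% to 60.0% of the summed level per kilobase of the 7 proteases in the KO group and 45.3% to 56.1% in the WT group, so its share overlapped between groups. The exon union was 7.237 kb for Mmp12, 8.144 kb for Timp3 and 0.888 kb (Timp1) to 5.96 kb (Mmp14) for the others. A union can be longer than the transcripts made, so the order and the shares depend on this choice of length.

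The table held 10 further genes of the family, of 17 looked for: Mmp3, Mmp7, Mmp11, Mmp16, Mmp17, Mmp23, Mmp25, Mmp27, Mmp28 and Timp4. Of these, 0 passed the test (smallest limma adjusted p = 0.155; 3 at an unadjusted p under 0.05, and 0 adjusted and 2 unadjusted by limma-voom, where 9.14% and 8.26% of all genes were under it unadjusted), while 4 had log2 differences above 0 and 6 below. Timp4, an inhibitor best known from heart and fat, had 389, 111, 205, 141 and 215 normalized counts in KO replicates 1 to 5 and 1.83, 29.5, 27.8 and 49.1 in WT replicates 1 to 4. Its ranges did not overlap, as in 1.55% of all genes with KO higher, and the log2 difference was 3.37 (95% interval 1.48 to 5.26; limma adjusted p = 0.155). Mmp3 (stromelysin 1, which activates other proforms) had a log2 difference of 0.58 (adjusted p = 0.296) and Mmp23 one of 0.69 (adjusted p = 0.482), both with overlapping ranges. Mmp7, Mmp16, Mmp17, Mmp27 and Mmp28 were at the floor in 1 to 5 libraries each, and their differences could not be pinned down at this spread.

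**Figure D4:**
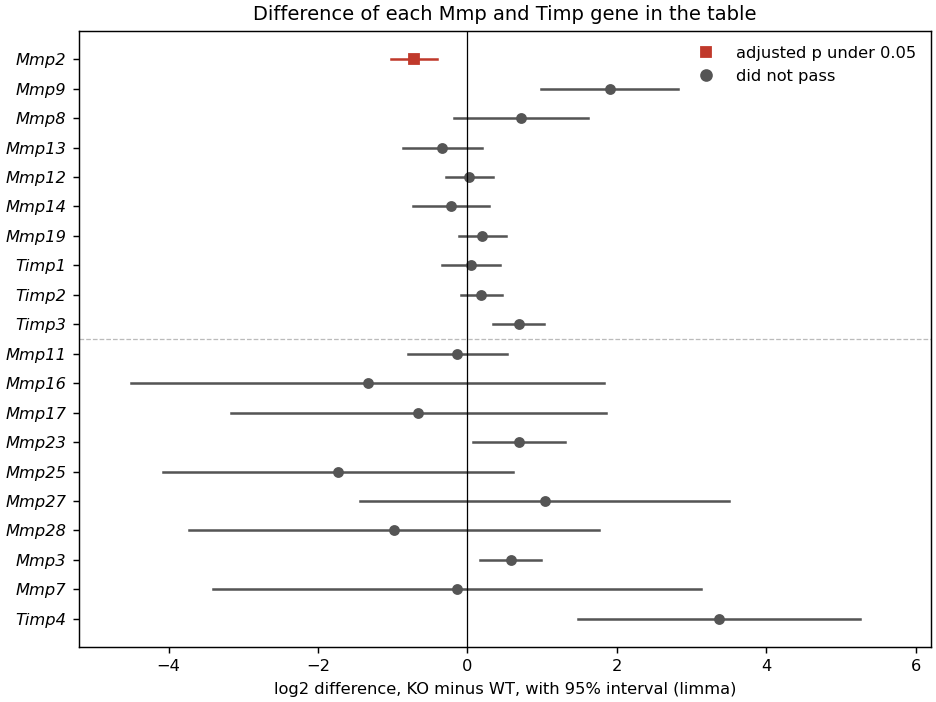
Log2 difference (KO minus WT) of each Mmp and Timp gene in the table with its 95% interval from limma, not adjusted for the number of genes; the 10 genes described first are above the dashed line. Mmp2, the red square at -0.72, is the gene past an adjusted p of 0.05, and Timp4 at 3.37 and Mmp9 at 1.90 have the largest positive differences.

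Genes around the family were read from lists written with earlier results known. In the Adam, activator, plasminogen, substrate and factor lists 0 genes passed in either direction by limma or by limma-voom. By unadjusted p under 0.05 the counts were 1 of 19, 2 of 15, 3 of 10, 3 of 21 and 3 of 13 with limma, and 2, 0, 3, 3 and 3 with limma-voom, against 9.14% and 8.26% of all genes, so that several of these shares were near those of all genes. Of 19 Adam and Adamts proteases, relatives that shed receptors and cut proteoglycans, 12 had differences above 0. Adam9 had the smallest p among them (5352 ± 505 for KO against 6697 ± 554 for WT, SD; limma, adjusted p = 0.289). Adam17, which Timp3 inhibits, had a log2 difference of -0.23 (adjusted p = 0.552). Of 15 genes for activators, inhibitors and docking partners, 11 were above 0, among them Lcn2, whose product binds Mmp9 (873 ± 456 against 434 ± 120, KO and WT; adjusted p = 0.434). Of 10 genes of the plasminogen system, which activates several proforms, 5 were above 0. The smallest p there belonged to Serpinb2, an inhibitor of urokinase (log2 difference 2.04, adjusted p = 0.094), and Plat, tissue plasminogen activator (0.71, adjusted p = 0.134).

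Of 21 matrix substrates 12 were above 0 and the median difference was 0.10, against 0.02 over all genes. Fn1, the fibronectin gene, averaged 42491 ± 6012 for KO against 32064 ± 5800 for WT (SD; limma, adjusted p = 0.221). Dcn, the decorin gene, had a log2 difference of 0.46 (adjusted p = 0.256). Of 13 genes for factors known to act on Mmp promoters, 8 were above 0. Jun had 4785 ± 565 in KO and 3072 ± 724 in WT (log2 difference 0.66) and Fos 82839 ± 12648 and 57087 ± 11218 (0.55), each with an adjusted p of 0.089. Their WT replicate 1 values, 4154 and 71994, were the highest of the WT group.

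For likeness, each gene's deviations from its group means were divided by their SD and compared over the 9 libraries with those of 11382 genes of mean 100 or more. The nearest to Mmp2 was St7, at a mean absolute difference of 0.154 SD, followed by Cachd1, Csrnp2, Ndnf and Fam102a. The nearest to Mmp9 was Tcf23 (0.176 SD), followed by Ola1, Bhlhe40, Enpp2 and Snapc4. Likeness over 9 libraries is a description, and 0 of these 10 genes passed between the groups (limma adjusted p between 0.482 and 0.980).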

How the data were processed

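RNA of F4/80 and CD11b sorted cells was enriched with oligo-dT beads before strand-specific library preparation, per the labels' protocols. Tools listed in the submitters' processing notes are DESeq2, Partek, HISAT and CASAVA 1.8.2, with mm10 as the build and no role stated for any tool. Annotation, counting rules and gene filter: not given in the sources used here. Each deposited value is a signal, read from its spacing as a gene's count over 1 factor per library, with a lowest value of 1. Because of that floor the main fit used no count model. Limma-voom was run as an alternative on reads worked out from the spacing.

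Log2 values with a pseudocount of 1 were fitted for all 14905 genes by genotype alone with limma 3.58.1 (R 4.3.3; mean-variance trend), and p-values were adjusted by Benjamini-Hochberg. The planned filter (4 libraries at 1 or more) took out 0 genes. Fits were tested on simulated data. The Mmp14 to Timp2 ratio was tested by enumerating all 126 splits in Python 3.11.15, two-sided by doubling the smaller tail; planned tests of Mmp9 to Timp1 and Mmp2 to Timp2 are not given, since those genes were picked for their differences. Reads were worked out as multiples of 1 step per library (tolerance 0.1 of a step).

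The 10 genes, the other lists and the alternatives were chosen with earlier results of these data known. Genes named are the 10, Nucb2, other Mmp and Timp genes, at most 4 of each list by smallest p, and the 5 nearest to Mmp2 and to Mmp9. Pecam1, Vwf, C1qa, Fcgr1, Csf3r, S100a8, S100a9, Ltf and Mpo were named as cell type markers, some after their values were seen. Positions are from GENCODE M21 on GRCm38 and promoters from RefSeq GRCm38.p6. Alternatives covered pseudocounts, filters, scaling, weights, moderation, replicate block, depth class and left-out libraries; limma-voom on the reads worked out, without TMM, was added after seeing the data. Figures used matplotlib 3.10.9.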

Additional observations from a re-analysis of the deposited data

Results flagged for a closer look

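Of 144 groups of 4 or 5 libraries looked at (2 for each gene or ratio), 8 held 1 library far from the others, where chance gives about 1 in 20. The genes looked at were the 10, Nucb2, the other Mmp and Timp genes and the 4 of smallest p in each other list. Among the ratios, Mmp2 to Timp2 was 22.9% in KO replicate 1 and 16.1% to 17.1% in the other KO libraries. None of the 10 Mmp and Timp genes examined was among them by its own level. Of the other Mmp genes, Mmp25 had 294.9 normalized counts in KO replicate 3 and 3.88 to 69.4 in the other KO libraries. Mmp16 had 42.6 in KO replicate 4 and 1 to 6.36 in the others. Lama4, a laminin chain gene, had 1463 in KO replicate 5 against 890 to 965. Jun had 4154 in WT replicate 1 against 2628 to 2764 in the other WT libraries. Of the cell type markers, Plin1 had 61.2 in KO replicate 4 and was at the floor of 1 in the other KO libraries. Mpo had 105.8 in KO replicate 2 against 1 to 25.6 in the other KO libraries, and 17.4 in WT replicate 1 with the other WT libraries at 1. Where the other libraries of a group are all at the floor, any higher value is flagged, so the chance share does not apply there.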

How the results depend on the processing

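The directions of Mmp2, Mmp8, Mmp9 and Timp3 were the same under all 23 alternatives. Their log2 differences ran from -0.85 to -0.56, 0.54 to 1.12, 1.78 to 2.26 and 0.48 to 1.26. The KO and WT ranges of Mmp2, Mmp9 and Timp3 did not overlap. Leaving out libraries therefore could not turn the signs of these genes, and the kept directions are a description. Mmp9 and Timp3 passed in 0 of the 22 tested alternatives (limma adjusted p from 0.066 to 0.537 and from 0.080 to 0.663). Of the 10 genes, 0 passed with a pseudocount of 0.1 (Mmp2 adjusted p = 0.0506), quantile normalization (0.0685), limma-voom on reads (0.0590), a depth term (0.104), only the 6 deeper libraries (0.123) or the replicate block, and 0 to 1 passed with each library left out in turn; the causes were not tested. Mmp2 passed in 7 of the 13 tested alternatives other than leaving out 1 library. Over all genes 46 passed, against 0 in the 6 deeper libraries (1039 at an unadjusted p under 0.05), 0 with the replicate block (1104) and 5 to 38 with each library left out. All-gene counts were 43 with a pseudocount of 0.1, 34 with quantile normalization, 32 with limma-voom and 33 with a depth term. Scaling moved the median of all genes by less than 0.1.

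Near 0, signs turned. Mmp12 was -0.117 with a depth term, -0.0425 in the 6 deeper libraries and -0.0925 to 0.14 with a library left out. Timp1 was -0.0319 with a depth term and -0.0708 to 0.13 with a library left out, and Timp2 was -0.0728 in the 6 deeper libraries. In the 3 shallower libraries Mmp12 and Timp1 were below 0 (-0.26 and -0.17), Mmp13 and Mmp14 above it (0.44 and 0.31) and Mmp19 below it (-0.44), with no test. The Mmp14 to Timp2 ratio differed by -0.61 to -0.25 with a library left out.

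The labels do not say whether replicate numbers pair the libraries. Same-numbered KO and WT libraries had correlations of their deviations between -0.01 and 0.05 over genes, and 1 of 4 matched its own number best. These values show no sign of pairing but cannot exclude it. With the replicate block, which drops KO replicate 5, Mmp2 was -0.75 (adjusted p = 0.471), Mmp9 1.79 and Nucb2 -1.58 (adjusted p = 0.0515). A planned quasi-likelihood count test was not run, since the floor hides reads. With 5 and 4 libraries and coefficients of variation up to 37.3% for these genes, small differences were not resolved.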
